A study of Mus musculus with 2 samples.

Results

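The transcription factor Sox9 switches on the collagen and proteoglycan genes of cartilage. It does so together with other proteins: partners that bind beside it on DNA, enzymes that change histones, and adaptors that link it to RNA polymerase. The genes described here encode 10 reported coactivators and partners of Sox9, namely Arid5a, Arid5b, Phf2, Wwp2, Zfp219, Trps1, Ep300, Crebbp, Ppargc1a and Med12. A probe set was taken as theirs if the platform annotation paired it with that 1 gene symbol and no other. This gave 32 probe sets for 10 of the 18193 genes that have a probe set of their own, and no probe set named a member together with another gene. Arid5a, Zfp219, Ep300 and Med12 have 1 probe set each and the other 6 genes have several.

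Both groups came from embryos of Col2a1-Venus-Tg mice on a C57Bl/6 background. Venus, a modified green fluorescent protein, labels chondrocytes, the cells of cartilage, in these mice. Cells were sorted by fluorescence, and total RNA from the Venus-positive and from the Venus-negative cells was hybridised to 1 Affymetrix mouse array each. The labels give no embryonic stage, no number of embryos and no gates for the sort, and every cell carrying enough label enters the positive fraction whatever its stage of maturation. With 1 array a group there is no replicate error, no test between the fractions was possible, and each difference below describes these 2 arrays.

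Cartilage does not form without Sox9. As background, Arid5b recruits the demethylase Phf2 to Sox9 target promoters, where Phf2 removes a repressive methyl mark from histones. Ep300 and Crebbp are closely related histone acetyltransferases, Ppargc1a is best known as a coactivator of mitochondrial genes, and Med12 is a subunit of the Mediator complex. Wwp2, a ubiquitin ligase gene, is both a partner and a target of Sox9, and it carries the cartilage microRNA miR-140 in an intron.

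The sequences at the Wwp2 locus are shown because Wwp2 was the member that differed most between the fractions. They are from RefSeq (assembly GRCm38.p6) and are written 5′ to 3′ on the plus strand, which is the strand of the gene. The hairpin of miR-140 lies inside Wwp2, on the same strand, at chr8:107551244-107551313. The bases in capitals in the hairpin are the mature miR-140-3p, and those in the mature sequence are its seed (bases 2 to 8). No other mature sequence of this hairpin was in the reference used, so any other product is not marked. The upstream sequence is chr8:107436120-107436333, the bases before the outermost annotated start of Wwp2.
miR-140 hairpin: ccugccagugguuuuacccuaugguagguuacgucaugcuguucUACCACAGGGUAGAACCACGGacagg
miR-140-3p: uACCACAGgguagaaccacgg
Wwp2 upstream: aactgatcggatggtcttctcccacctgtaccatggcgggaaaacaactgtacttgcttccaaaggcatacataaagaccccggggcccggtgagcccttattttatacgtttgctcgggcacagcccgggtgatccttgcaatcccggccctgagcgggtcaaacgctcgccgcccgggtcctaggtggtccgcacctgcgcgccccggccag

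The array measured Wwp2 messenger RNA and no probe set was paired with Mir140, so the level of the microRNA is unknown here. The upstream windows were searched for ACAAT and ACAAAG, core letters bound by SOX proteins, on both strands, in the 250 bases before each RefSeq start site. RefSeq windows were at hand for 9 members, 10 windows in all since Zfp219 has 2. Either motif was found in 5 of the 10 windows, against 38.8% of all 32851 windows (27.7% for ACAAT and 16.5% for ACAAAG). The Wwp2 window held neither motif, nor did those of Arid5b, Ep300 and Crebbp.

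Signals are MAS5 intensities in arbitrary units, as deposited, and a pair such as 606 against 8443 gives the Venus-negative signal first. A signal under 22.5, the median of all signals on both arrays, was treated as too dim to order and set to this floor, and a gene counted as measured where either array put 1 of its probe sets at or above the floor. The brightest probe set, by mean log2 signal over both arrays, stands for its gene. The Venus-positive array was dimmer as a whole, with a median log2 ratio of -0.33 over 11789 measured genes, so the log2 ratios (Venus-positive over Venus-negative) of the members and the medians of lists are in most cases also given "relative", with this median subtracted. Other values are on the deposited scale unless called relative. Markers of the labelled cell type were high, and all 11 cartilage matrix genes that Sox9 is known to activate were at least 2-fold higher in Venus-positive cells, with log2 ratios from 2.63 to 6.31. Col2a1 itself was at 606 against 8443, which is a check of the sort only.

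All 10 members were measured, and of their 32 probe sets 24 reached the floor on both arrays, 3 on 1 array and 5 on neither. Of the 10 members, 1 was at least 2-fold higher in Venus-positive cells (Wwp2), 1 was at least 2-fold lower (Arid5b) and 8 were within 2-fold. Among all measured genes 2.79% were 2-fold higher and 11.6% were 2-fold lower. On the relative scale 2 members were 2-fold higher, Wwp2 and Trps1, and Arid5b was lower, against 5.06% and 6.45% of all measured genes. The median log2 ratio of the members was -0.25, or 0.09 relative to the median gene. As a group the cofactors thus lay near the middle of all genes, with 1 gene far above it and 1 below. Sox9, which they assist, was at 338 against 1601, a log2 ratio of 2.24 that only Wwp2 exceeded, and the other 9 members lay from 1.53 to 3.99 below it on the log2 scale.

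**Figure D1:**
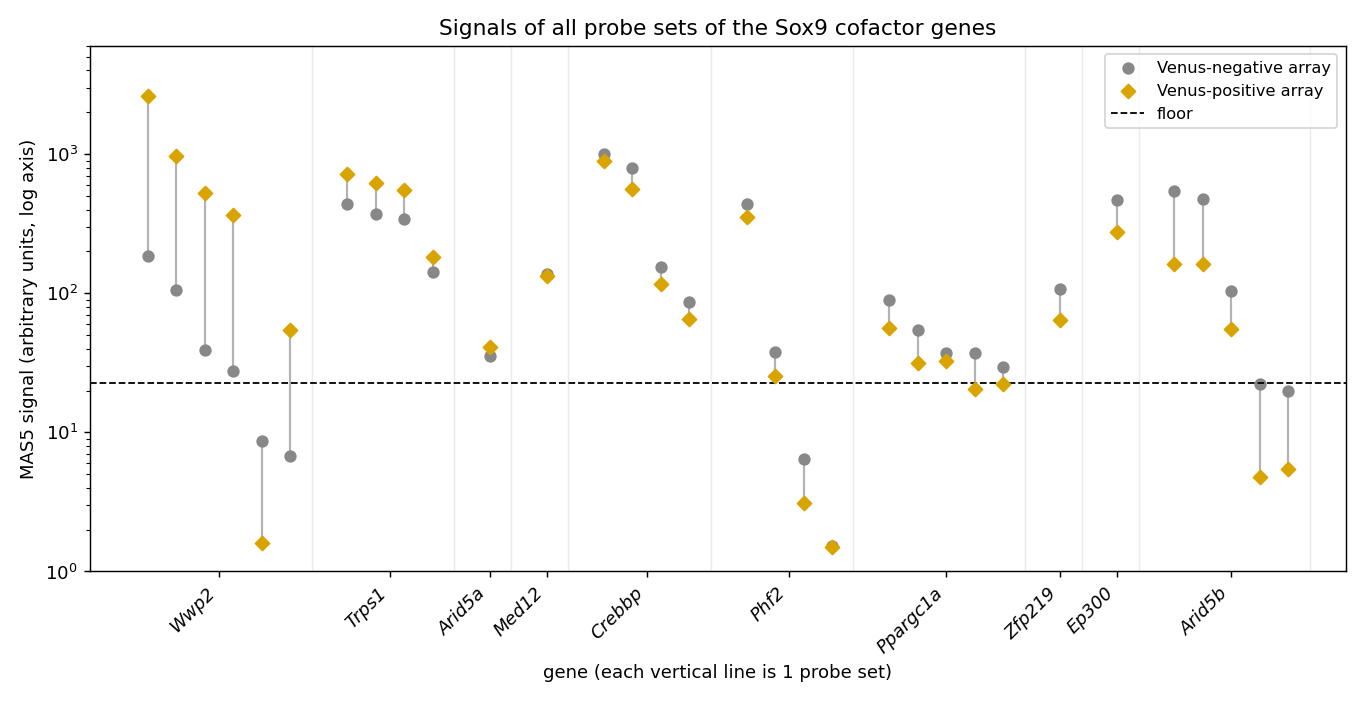
MAS5 signal (log axis) of each of the 32 probe sets of the 10 genes, as a grey circle for the Venus-negative and a yellow diamond for the Venus-positive array, joined by a line, with the floor of 22.5 dashed and no replicates. Wwp2 and Trps1 have diamonds above circles on every probe set that reaches the floor, and Arid5b has them below on the 3 that reach it.

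The ubiquitin ligase gene Wwp2 was 14.3-fold higher in Venus-positive cells. Its brightest probe set (1448145_at) read 184 in Venus-negative and 2634 in Venus-positive cells, a log2 ratio of 3.84, or 4.17 relative to the median gene. This was the 23rd highest ratio of the 11789 measured genes. A further 3 probe sets with both signals above the floor gave the same picture. The first was at 106 against 967 (9.10-fold), the second at 39.1 against 524 (13.4-fold) and the third at 27.6 against 366 (13.3-fold). The Venus-negative signal of the third was close to the floor, so the size of its fold rests on a dim reading. Another probe set was at 6.76, below the floor, against 54.3 and was at least 2.41-fold higher. The sixth (1442162_at) was below the floor on both arrays, at 8.69 and 1.61, so it gives no order. Which Wwp2 transcripts the probe sets match was not examined, and the probe sets of 1 gene share the same 2 RNA samples.

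Among the 8 measured members of the NEDD4 family of ubiquitin ligases, to which Wwp2 belongs, Wwp2 was the 1 gene past 2-fold. The median log2 ratio of the family was -0.33, close to that of all genes. Wwp1, the close relative of Wwp2, read 243 in Venus-negative and 159 in Venus-positive cells, a log2 ratio of -0.62 that is 4.45 below that of Wwp2. Nedd4l, which regulates ion channels, had a log2 ratio of -0.58. Nedd4, Smurf2 and Itch had log2 ratios of -0.31, -0.36 and -0.04 on their brightest probe sets, and Smurf1 one of 0.14. Their single probe sets ran from -0.31 to 0.04 for Nedd4, from -0.36 to 0.23 for Smurf2 and from -0.68 to -0.04 for Itch.

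Trps1, a GATA-type zinc finger repressor whose loss causes skeletal malformation, was higher in Venus-positive cells on all 4 of its probe sets, each by less than 2-fold. The brightest read 436 in Venus-negative and 715 in Venus-positive cells, 1.64-fold higher. Others were at 374 against 618 (1.65-fold), 341 against 554 (1.63-fold) and 143 against 182 (1.27-fold). The brightest 3 agree closely, with log2 ratios from 0.70 to 0.72. Relative to the median gene the log2 ratio of Trps1 was 1.04, so whether it passes 2-fold rests on the scale. Its ratio lay above that of 95.3% of measured genes.

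The GATA factors measured beside Trps1 had other directions. Gata6 read 84.4 in Venus-negative and 35.9 in Venus-positive cells, 2.35-fold lower, but within 2-fold relative to the median gene (-0.90). Gata2, a factor of blood precursors, was at 133 against 117. Gata1, the erythroid factor, was at 40.4 against 9.45, below the floor, and at least 1.79-fold lower. Trps1 was the 1 gene of the 5 measured whose log2 ratio was above 0 on the deposited scale, against 3 of 5 above the median gene. Among these 3 was Gata3, at 24.2 against 13.6, which is below the floor. Its place above the median gene rests on the floor and is not settled.

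The ARID genes, which encode partners with an AT-rich DNA-binding domain, went apart. Arid5b was lower in Venus-positive cells. Its brightest probe set (1420973_at) read 547 in Venus-negative and 163 in Venus-positive cells, 3.36-fold lower, with a log2 ratio of -1.75, or -1.42 relative to the median gene. A second was at 478 against 163 (2.94-fold lower) and a dimmer one at 103 against 55.6 (1.86-fold lower). The remaining 2 were below the floor on both arrays, at 19.7 and 22.1 in Venus-negative cells and 5.44 and 4.77 in Venus-positive cells. Only 3.27% of measured genes had a lower ratio than Arid5b.

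Its paralog Arid5a was dim on both arrays, at 35.2 in Venus-negative and 41.4 in Venus-positive cells, 1.18-fold higher on its single probe set. The log2 ratio of Arid5a exceeded that of Arid5b by 1.98, a difference that no scaling of the arrays by a constant can change. For genes as dim as Arid5a, with under 2 times the floor, probe sets of 1 gene differed with a pooled standard deviation of 0.40. That spread is within genes on the same 2 RNA samples and is no error of the difference of 1.98. Over the 12 measured genes of the ARID family the median log2 ratio was -0.52, or -0.19 relative to the median gene. On the brightest probe sets Arid5b had the lowest ratio of the family and Arid5a the highest, and the other 10 lay between -0.89 (Arid3a) and -0.24 (Kdm5c). Single probe sets overlapped this order, with 1 of Kdm5c at 0.35 and 1 of Kdm5b at -1.32, where those of Arid5b ran from -1.75 to -0.89. Arid1b, a subunit of the BAF chromatin remodelling complex, was at 558 against 317 and Arid2, of the related PBAF complex, at 1606 against 963.

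**Figure D2:**
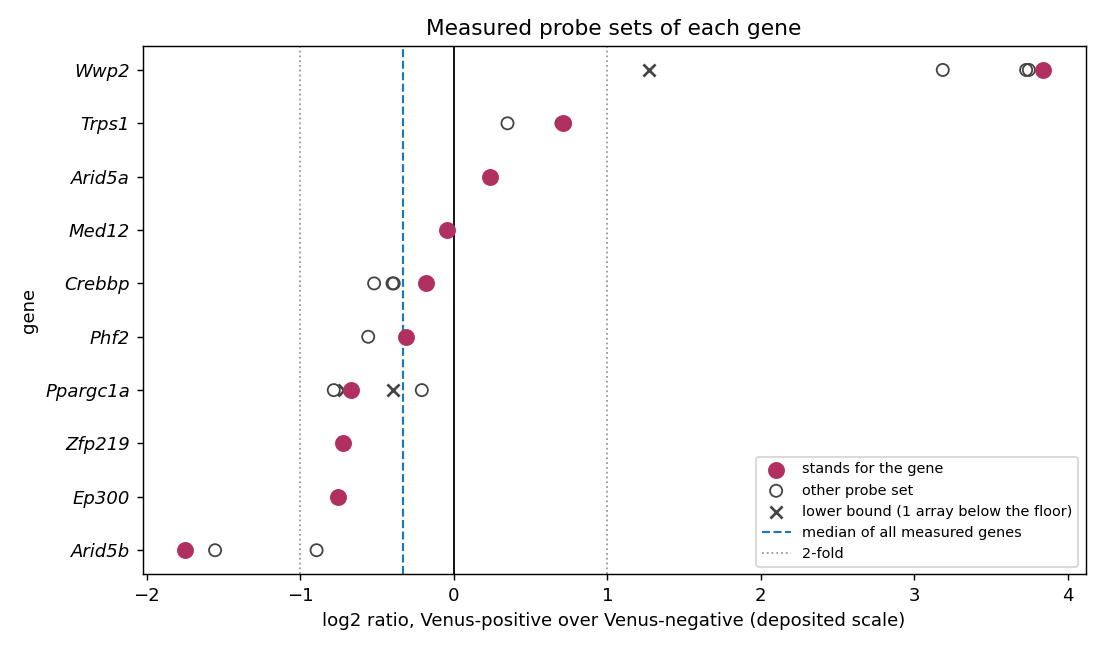
Log2 ratios (Venus-positive over Venus-negative) of the 27 measured probe sets of the 10 genes, with the probe set that stands for each gene filled, crosses for lower bounds, dotted lines at 2-fold and a dashed line at the median of all measured genes (-0.33). Wwp2 reaches 3.84, Arid5b spans -1.75 to -0.89, and the genes between them lie within 2-fold.

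Phf2, the demethylase that works with Arid5b, did not share the deficit of its partner. Its brightest probe set read 441 in Venus-negative and 355 in Venus-positive cells, a log2 ratio of -0.31, or 0.02 relative to the median gene. A second was at 37.7 against 25.6, close to the floor, with a log2 ratio of -0.56. The other 2 were below the floor on both arrays. The log2 ratio of Arid5b was 1.44 below that of Phf2.

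Demethylases of the JmjC class, to which Phf2 belongs, were all within 2-fold on their brightest probe sets. The 16 measured genes had log2 ratios from -0.51 to 0.09 and a median of -0.32, or 0.01 relative to the median gene. Phf8, a close relative of Phf2, was at 153 against 144. Kdm5b, Kdm6a and Kdm5a had the largest differences, with log2 ratios of -0.51, -0.49 and -0.47. Single probe sets went further in both directions, down to -1.32 for Kdm5b and -1.07 for Kdm5a, and from -1.08 to 0.35 for Kdm5c. Kdm5b and Kdm6a act on methyl marks of histones linked to active and to silent genes respectively.

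The acetyltransferase genes were both within 2-fold. Crebbp was close to the median gene on 4 probe sets, at 1006 in Venus-negative against 887 in Venus-positive cells, 800 against 558, 155 against 117 and 86.1 against 65.7. Its log2 ratios ran from -0.52 to -0.18, or from -0.19 to 0.15 relative to the median gene, so its sign depends on the scale. Ep300 was lower, at 468 against 277 on its single probe set, 1.69-fold lower, with a log2 ratio of -0.76, or -0.42 relative to the median gene. The ratio of Crebbp exceeded that of Ep300 by 0.58. For genes whose brightest probe set was at 8 times the floor or more, all measured probe sets of 1 gene differed with a pooled standard deviation of 0.30. This spread is within genes on the same 2 RNA samples and is no error of a difference between 2 genes. The lowest Crebbp probe set was 0.24 above Ep300.

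None of the 12 measured lysine acetyltransferase genes was 2-fold higher or lower on its brightest probe set, and their median log2 ratio was -0.39, or -0.06 relative to the median gene. The largest differences were in Ncoa1, a nuclear receptor coactivator (326.9 against 163.5), Kat6b (957 against 530, log2 ratio -0.85) and Ep300. Ncoa1 lay just inside 2-fold on this probe set, its other probe set gave a log2 ratio of -1.56, and it counted as 2-fold lower when probe sets were averaged. The opposing enzymes, the histone deacetylases, had a median of -0.68 over 11 genes, or -0.34 on the relative scale. Hdac7 was lower in Venus-positive cells by 3.11-fold (148 against 47.7), Hdac8 and Hdac11 had log2 ratios of -0.81 each, and Hdac4, a regulator of chondrocyte hypertrophy, was at 85.0 against 75.6.

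Med12, of the kinase module of Mediator, was level between the fractions on its single probe set, at 137 in Venus-negative and 133 in Venus-positive cells. Its log2 ratio was -0.04, or 0.29 relative to the median gene, with 74.6% of measured genes below it. All 33 listed Mediator genes were measured, with a median log2 ratio of -0.40 (-0.07 relative), and none was 2-fold higher. Med18 (65.5 against 29.0, 2.26-fold lower) and Med19 (209 against 98.2, 2.13-fold lower) passed 2-fold on the deposited scale but not relative to the median gene. The other Med19 probe set gave a log2 ratio of -0.54. Med29 had a log2 ratio of -0.71 on its brightest probe set and 0.15 on its other one.

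Ppargc1a, which encodes the coactivator PGC-1 alpha, was dim and somewhat lower in Venus-positive cells on all 5 probe sets. The brightest read 89.7 in Venus-negative and 56.5 in Venus-positive cells, 1.59-fold lower. The next was at 54.4 against 31.7 (1.72-fold lower) and another at 37.4 against 32.3 (1.16-fold lower). The last 2 fell below the floor in Venus-positive cells, at 36.9 against 20.6 and 29.6 against 22.3. Relative to the median gene the brightest gave a log2 ratio of -0.34, and the 3 probe sets above the floor on both arrays ran from -0.45 to 0.12. For the last 2 the size of the decrease is only a lower bound.

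Genes of the same family and their partners were lower at the median, -0.67 over 9 measured genes, a median set by Ppargc1a itself (-0.34 relative). Ppargc1b was at 78.1 in Venus-negative cells and below the floor, at 21.0, in Venus-positive cells, at least 3.47-fold lower. The orphan receptor genes Esrrg (55.6 against 16.3, at least 2.47-fold lower) and Esrra (64.6 against 29.0, 2.23-fold lower) followed. Relative to the median gene Esrra did not reach 2-fold, at -0.82, and Ppargc1b stayed past it. Esrrg was at -0.97 or lower, since the floor stands in place of its dimmer signal, so whether it passes 2-fold there is not settled. The third family member, Pprc1, was the 1 gene of this list above 0 on the deposited scale, at 220 against 350, a log2 ratio 1.33 above that of Ppargc1a.

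Zfp219, a zinc finger protein reported to bind Sox9 on the Col2a1 gene, read 107 in Venus-negative and 64.6 in Venus-positive cells. It was 1.65-fold lower on its single probe set, with a log2 ratio of -0.72, or -0.39 relative to the median gene. Zfp219, Ep300 and Ppargc1a had nearly the same ratio, between -0.76 and -0.67, and their order is not settled.

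**Figure D3:**
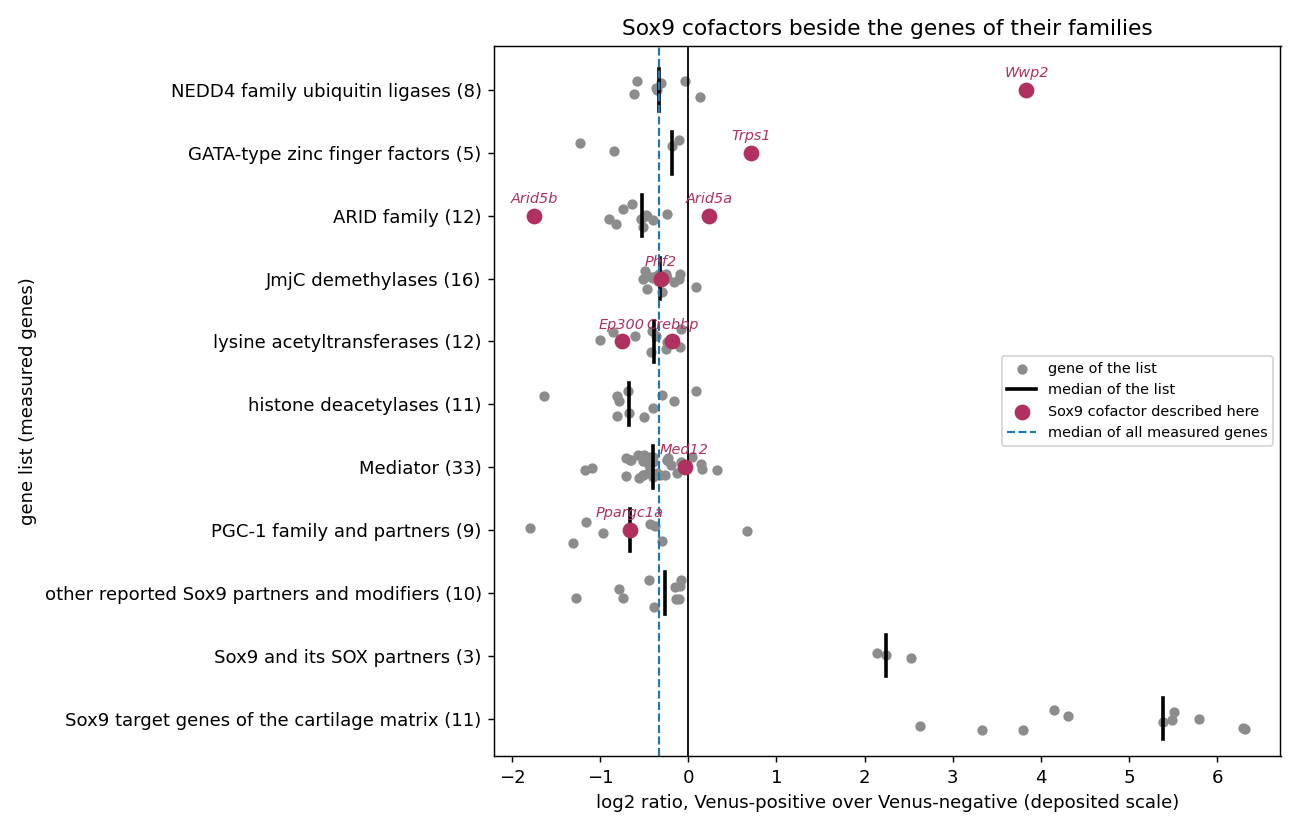
Log2 ratios of the measured genes of each list, 1 point a gene, with list medians as black bars, the Sox9 cofactors in red, and the median of all genes dashed (vertical scatter within a list has no meaning). On the brightest probe set of each gene, Wwp2 stands 4.45 above Wwp1, Arid5a and Arid5b are at opposite ends of the ARID family, and the SOX factors and their targets lie from 2.15 upwards.

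Other reported partners and modifiers of Sox9 lay near the median gene too. Of 12 listed, 10 were measured, none was 2-fold higher and Prkaca, the catalytic subunit of protein kinase A, was 2.43-fold lower (1485 against 612), but within 2-fold relative to the median gene (-0.95). Smad3 had a log2 ratio of -0.79 and Creb1, a transcription factor activated by that kinase, one of -0.74, though the 5 probe sets of Creb1 ran from -1.51 to -0.27. Med25, the Mediator subunit reported to act with Wwp2 and Sox9, was at 350 against 257 and the acetyltransferase gene Kat5 at 208 against 196. The median log2 ratio of these 10 genes was -0.27, or 0.06 relative to the median gene. Sox5 and Sox6, the SOX partners of Sox9, had log2 ratios of 2.53 and 2.15. The 6 probe sets of Sox5 ran from 0.12 to 2.79 and the 4 of Sox6 from 2.02 to 2.79.

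**Figure D4:**
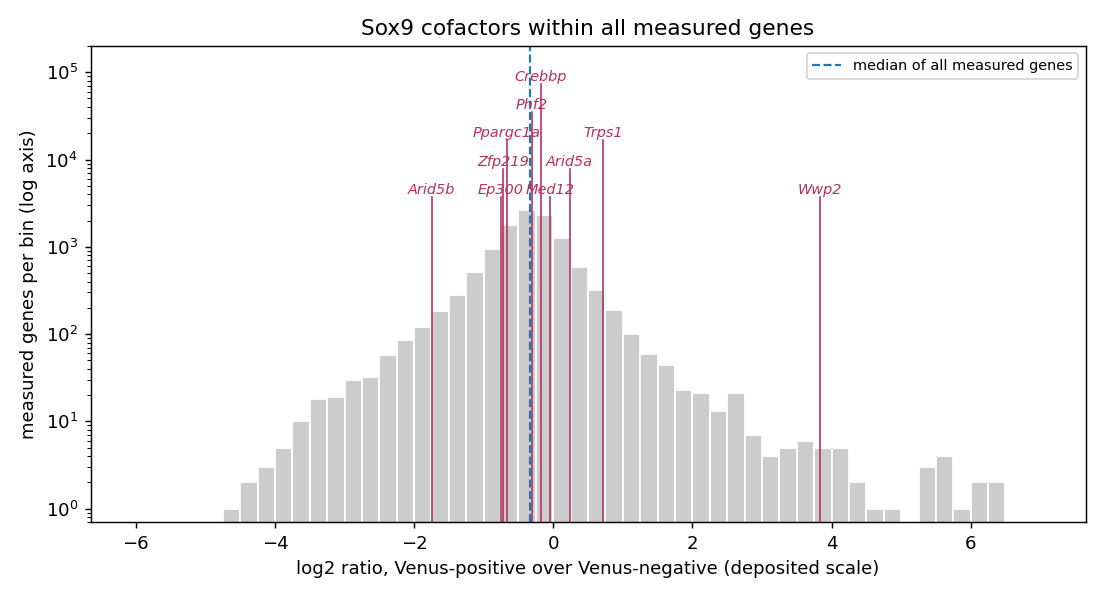
Number of measured genes (log axis) in bins of log2 ratio, Venus-positive over Venus-negative, with a red line at each of the 10 genes and a dashed line at the median of all 11789 genes. Wwp2 stands in the upper tail at 3.84, Arid5b in the lower flank at -1.75, and 7 of the other 8 genes lie between -0.76 and 0.23, with Trps1 at 0.71.

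Markers of cells outside cartilage were lower in the Venus-positive fraction, and fewer cells of a type and less RNA per cell cannot be told apart in such samples. Their summed marker signals went from 22358 in Venus-negative to 10408 in Venus-positive cells for 8 fibroblast and perichondrium genes, of which 6 were 2-fold lower. Col3a1, the brightest at 10341 against 6301 and not 2-fold lower, leads this sum, and the median log2 ratio of these genes was -1.92. The sum for 8 skeletal muscle genes went from 4506 to 402, with 8 lower, and that for 8 leukocyte genes from 1886 to 222, with 7 lower. Erythroid (4347 to 366, 7 of 7), endothelial (897 to 187, 8 of 8), epithelial (1557 to 345, 6 of 7) and neuronal markers (903 to 245, 4 of 7) were lower as well. Some defining markers did not reach the floor in Venus-positive cells, among them Ptprc, Myod1, Klf1, Pecam1 and Trp63, whereas of the fibroblast genes Dpt alone did not. These shifts run in the same direction as the lower signals of Arid5b, Ep300, Ppargc1a and Zfp219, and their part in those differences was not tested.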

How the data were processed

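RNA of 1 Venus-negative and 1 Venus-positive sample was measured on 1 one-colour Affymetrix array each, grouped by the cell type in the labels. The deposited intensity of each probe set was computed by the authors with MAS5, per the submitters' processing notes. Its version and scaling target were not given in the sources used here, and no detection calls were used. All 45101 signals an array were above 0, and their 2% trimmed means were 133 (Venus-negative) and 109 (Venus-positive). The 64 AFFX controls were set aside, and 34945 probe sets with 1 symbol were used. Gene positions and sequences are from RefSeq GRCm38.p6.

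Log2 ratios, lists and counts at 2-fold were computed with pandas 2.3.3 and numpy 2.4.6. No p-value was computed, and the number of arrays limits the precision. The procedure was tested on simulated data, with large changes placed in genes well above the floor. That test does not cover dim genes such as Arid5a or small ratios. The members and the 18 lists were chosen with earlier results of these data known. Named genes were all members, Sox9, Sox5, Sox6, Col2a1, the 3 genes of each family or partner list with the largest absolute log2 ratio, and paralogs of members. Of the lists of cartilage targets and cell type markers only sums, counts and a few markers are given. Nedd4, Smurf1, Smurf2, Itch, Gata2, Gata3, Kdm5c, Arid2, Hdac4, Med25, Kat5, Pprc1 and the markers were named after their values were seen. Alternatives were 3 scalings, 3 treatments of the floor and 2 choices of probe set.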

Additional observations from a re-analysis of the deposited data

How the results depend on the processing

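Wwp2 and Arid5b kept their direction and stayed past 2-fold under all 8 alternatives, with log2 ratios from 3.15 to 4.17 and from -1.75 to -1.40. Both ends nearest to 0 came from averaging probe sets. A value counts as moved if it changed by over 0.34, the pooled standard deviation between probe sets of 1 gene. By this rule 71 of 77 recomputed gene values of the members did not move. Much of this count was fixed in advance. The median of -0.33 used for centring and the shift of 0.31 for the hybridisation controls are both smaller than the limit. Averaging also cannot move a gene with 1 probe set. Single probe sets were not in this count, and some moved further. With the 75th percentile floor the Wwp2 probe sets 1438482_at and 1456714_at went from 3.73 and 3.75 to 1.68 and 2.20. With quantile normalization Arid5a was at 0.68, Med12 at 0.31, Ppargc1a at -0.26 and Zfp219 at -0.33. Averaging over probe sets gave Arid5b -1.40 and Wwp2 3.15. The cause of these moves was not tested. Trps1 was at 1.04 after centring and 1.02 on the hybridisation controls, so 2 members were then 2-fold higher, and at 0.98 with quantile normalization. Med12 and Crebbp changed sign under the 3 scalings, and Phf2 lay between -0.01 and 0.02 there. The 75th percentile floor left 7 members measured, without Arid5a, Ppargc1a and Zfp219. Over all genes 329 were 2-fold higher and 1368 lower, against 597 and 760 after centring, 596 and 764 with quantile normalization, 566 and 819 on the hybridisation controls, 672 and 2534 with a 25th percentile floor and 181 and 475 with a 75th percentile one. Of the family lists, the 2-fold lower genes went from 2 to 0 for Mediator under the 3 scalings and with log2(signal + 16). They went from 1 to 0 for the GATA factors under the 3 scalings and for the other Sox9 partners after centring. For the PGC-1 list they went from 3 to 1 after centring. They went to 2 for that list with quantile normalization, on the hybridisation controls and with log2(signal + 16). With the floor at percentile 75 the count was 0 for Mediator, the GATA factors, the PGC-1 list and the deacetylases. Averaging probe sets gave 1 acetyltransferase gene in place of 0 and 2 deacetylase genes in place of 1. Sox5 was at 1.80 with that floor and at 2.05 averaged. No paired analysis was possible because each group holds 1 array.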
